A study of Mus musculus with 9 samples.

Results

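Core components of the mTOR pathway were followed across the cell types of the adult neural stem cell lineage of mice with and without interferon receptors. The set held 10 of the 32287 genes in the deposited count matrix. They were taken by name from the pathway the study links to interferon: the kinase Mtor, the complex subunits Rptor, Rictor and Mlst8, the upstream regulators Tsc1, Tsc2 and Rheb, and the translation effectors Rps6kb1, Eif4ebp1 and Eif4ebp2. The rule goes by gene name and uses no expression value.

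Cells came from 4 groups of male TiCY mice on a C57BL/6 background, in which a tamoxifen-inducible Cre under the Tlx (Nr2e1) promoter switches on a yellow fluorescent reporter (eYFP) in neural stem cells (NSCs) and is inherited by their progeny. A conditional Fas allele (Fas tm1Cgn) is part of the TiCY strain name in all groups. WT young mice were 16 weeks old (tamoxifen at 10 weeks, chase of 6 weeks), and WT old mice were 80 weeks old (tamoxifen at 71 weeks, chase of 9 weeks). KO mice (TiCY-IFNAGRKO) lacked the type-I receptor subunit Ifnar1 and the type-II subunit Ifngr1 in every tissue. KO young mice were 16 weeks old (tamoxifen at 7 weeks, chase of 9 weeks), and KO old mice were 92 to 105 weeks old (tamoxifen at 85 to 98 weeks, chase of 9 weeks). Each group was 2 mice pooled in 1 droplet reaction, so group and reaction cannot be told apart, and ages, chase times and tamoxifen ages also differed between groups. Sorting removed CD45+, Ter119+ and O4+ cells, then took eYFP+ and GLAST+ cells of the ventricular-subventricular zone (vSVZ), and eYFP+ and eYFP-/PSA-NCAM low cells of the remaining brain tissue taken (RoB), in which olfactory bulb, striatum and rostral migratory stream were pooled.

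After filters, 18051 cells were used (5818 and 2394 from young and old WT mice, 6462 and 3377 from young and old KO mice), with median depths of 5024.5 to 7393 unique molecular identifiers (UMIs) per cell. A hashtag, which names region and mouse, was called in 20.4% to 60.4% of cells of a library. The receptor genes were checked before any comparison. Levels are given as CPM, the UMIs of a gene per 1000000 UMIs. Where 4 values follow each other, the WT libraries come first and then those of the KO, each with the young before the old. Ifngr1 stood at 46.8, 85.5, 2.86 and 4.40 CPM and Ifnar1 at 21.3, 28.5, 8.07 and 6.57. Both genes were thus lower in each KO library than in each WT library, with residual UMIs of both in the KO libraries.

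mTOR is a protein kinase that couples nutrients and growth factors to cell growth. With Raptor (Rptor) it forms mTORC1, which drives cap-dependent translation, and with Rictor it forms mTORC2, which phosphorylates Akt. mLST8 belongs to both complexes. The TSC1-TSC2 complex switches off the small GTPase Rheb, which activates mTORC1. Among its targets, mTORC1 phosphorylates S6 kinase 1 (Rps6kb1) and releases the cap-binding factor eIF4E from its inhibitors 4E-BP1 (Eif4ebp1) and 4E-BP2 (Eif4ebp2). In the vSVZ, quiescent NSCs become activated, give rise to transit amplifying progenitors (TAPs) and then to neuroblasts, which mature into olfactory bulb neurons, and protein synthesis is known to be regulated along these steps. All values below are mRNA levels, and pathway activity, which depends on phosphorylation, was not measured.

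Mouse positions are those of GENCODE vM21 on GRCm38, matched by gene ID. Mtor (ENSMUSG00000028991) lies at chr4:148448611-148557683 on the plus strand, Rptor (ENSMUSG00000025583) at chr11:119602905-119899576 plus, Rictor (ENSMUSG00000050310) at chr15:6708379-6800401 plus and Mlst8 (ENSMUSG00000024142) at chr17:24473551-24479078 minus. Tsc1 (ENSMUSG00000026812) lies at chr2:28641228-28691167 plus, Tsc2 (ENSMUSG00000002496) at chr17:24595816-24632630 minus and Rheb (ENSMUSG00000028945) at chr5:24802823-24842624 minus. Rps6kb1 (ENSMUSG00000020516) lies at chr11:86498871-86544805 minus, Eif4ebp1 (ENSMUSG00000031490) at chr8:27260329-27276674 plus and Eif4ebp2 (ENSMUSG00000020091) at chr10:61428491-61452661 minus. Exons of 4 of the genes share bases with a gene on the opposite strand: Mlst8 shares 997 bases with Bricd5, Tsc2 shares 693 with Pkd1, Rps6kb1 shares 155 with Rnft1 and Rptor shares 84 with Rptoros. None shares exon bases with a gene on its own strand, and the strand setting of the counting is not given in the sources used here.

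Cell types were rebuilt from clusters and fixed markers. The pathway genes themselves were left out of the clustering. The classes with at least 20 cells in all 4 libraries were quiescent NSC-like (5789 cells, an astroglial profile), activated NSC-like (680), TAP-like (1196), neuroblast-like (6325), neuron-like (650), microglia-like (328) and olfactory ensheathing-like (2024). Their own markers summed to 21499 to 25616 CPM in quiescent NSC-like, 3290 to 4512 in activated NSC-like, 4975 to 6165 in TAP-like, 10467 to 11346 in neuroblast-like, 5127 to 6760 in neuron-like, 18462 to 24773 in microglia-like and 22195 to 28059 in olfactory ensheathing-like cells. Markers were not exclusive: those of activated NSC-like cells summed to 15081 to 17394 CPM in olfactory ensheathing-like cells, above their own class, and those of neuroblast-like cells to 5845 to 7688 in TAP-like cells. Median depth ran from 4133.5 to 5718.5 UMIs in neuroblast-like cells up to 11944 to 13628.5 in TAP-like cells. The microglia-like cells remained after a sort against CD45, and 94.5% of those with a hashtag carried a RoB tag. Among called cells the RoB share was 98.4% in olfactory ensheathing-like, 44.6% in neuron-like, 32.0% in TAP-like, 29.3% in neuroblast-like, 25.2% in quiescent NSC-like and 9.41% in activated NSC-like cells. Of the 5789 quiescent NSC-like cells, 1004 formed a cluster rich in eYFP, with an eYFP UMI in 49.3% of cells. The other quiescent clusters had one in 4.26% to 9.48% of cells and were led by genes such as Aqp4, Agt and Slc6a11. Comparisons with the quiescent class thus rest mostly on the latter clusters. Levels of a class are CPM of its summed cells in a library, as mean ± SD over the 4 libraries unless another n is named, and are compared between classes, not between genes. They are shares of a class's RNA, so a higher share and more RNA of the gene per cell cannot be told apart.

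**Figure D1:**
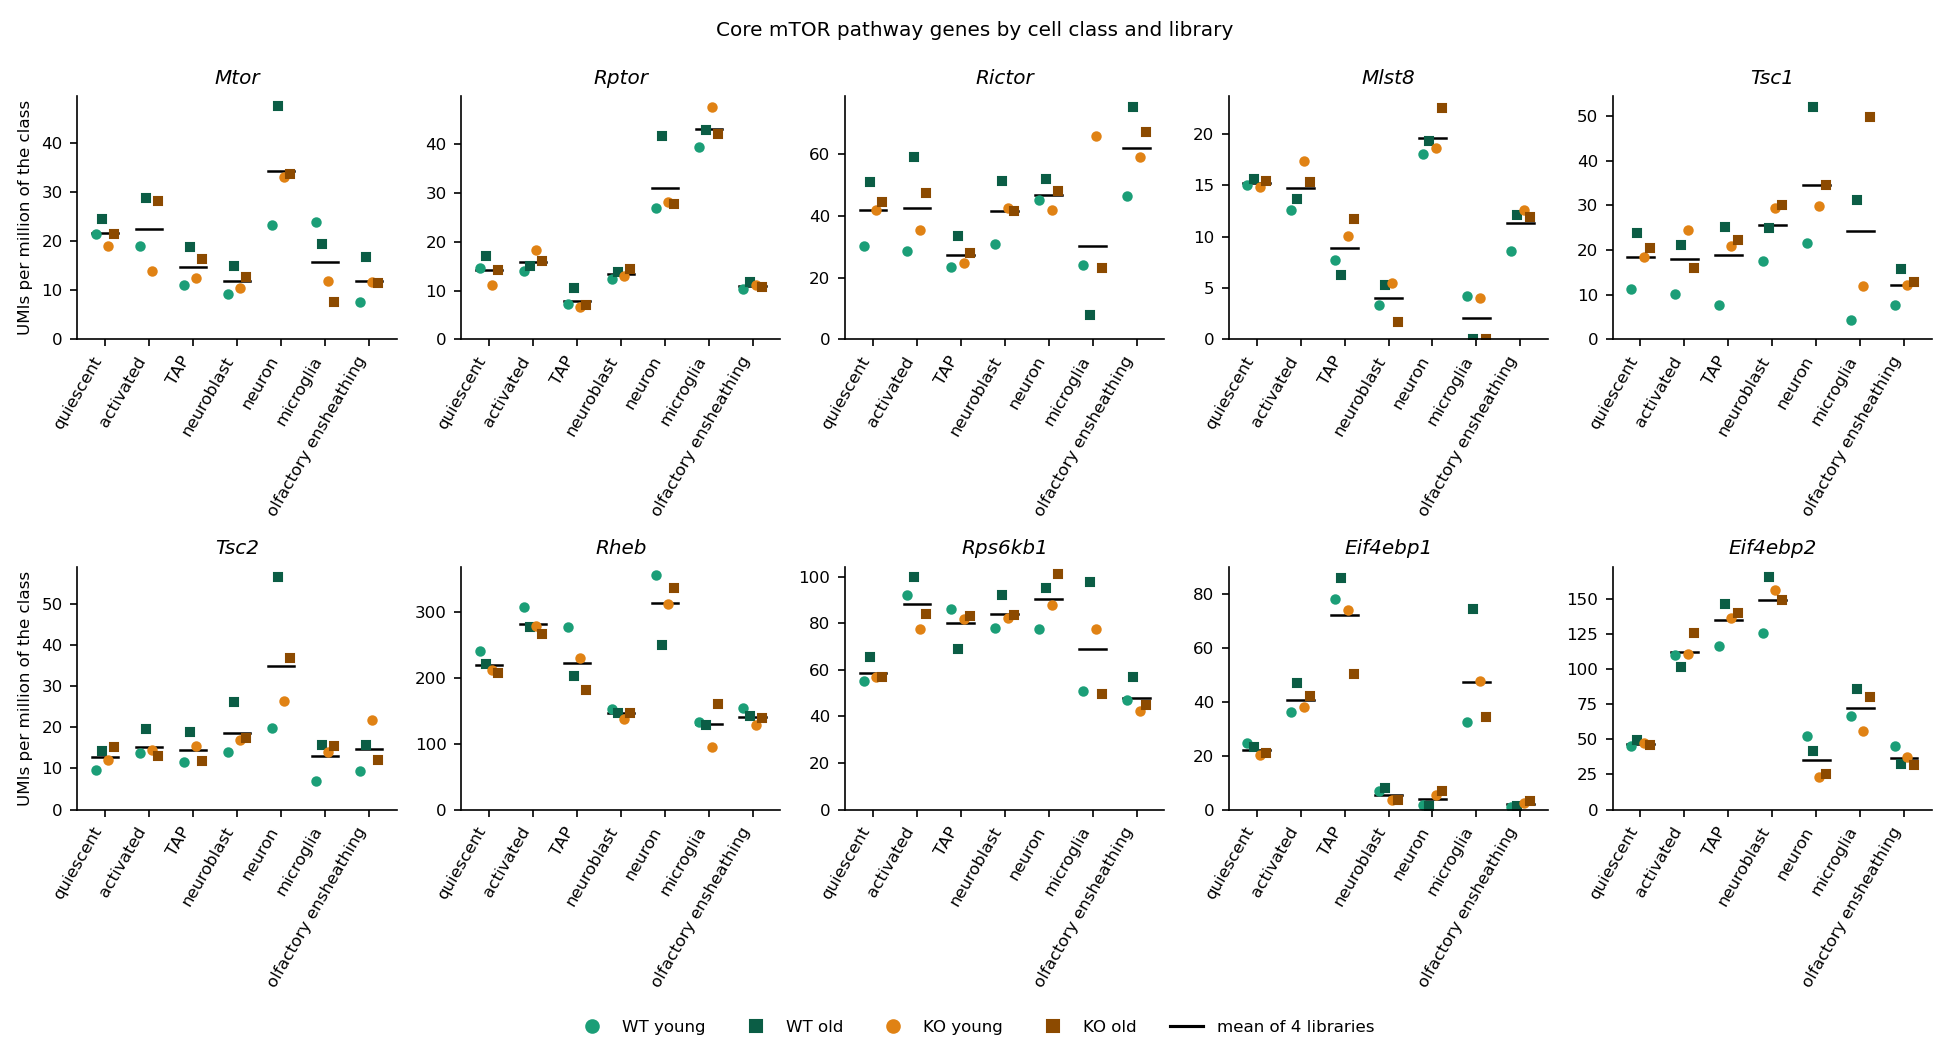
Levels of the 10 mTOR pathway genes in the 7 classes found in all 4 libraries, in CPM on a linear axis for each gene, with 1 point per library and a bar at the mean. Eif4ebp1 spans the widest range (means from 1.95 in olfactory ensheathing-like to 72.1 in TAP-like cells), and Rps6kb1 the narrowest (47.8 to 90.4).

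The 10 genes differed widely in how much they varied by cell type. Class means ran from 1.95 to 72.1 CPM for Eif4ebp1 and from 2.05 to 19.6 for Mlst8, with 38 and 5 UMIs in the lowest class, so no fold is given for these. The fold from the lowest to the highest class mean was 5.49 for Rptor, 4.19 for Eif4ebp2, 2.92 for Mtor, 2.85 for Tsc1, 2.72 for Tsc2, 2.42 for Rheb, 2.26 for Rictor and 1.89 for Rps6kb1. Classes were compared in 6 pairs with edgeR's quasi-likelihood test on summed counts, with library as a block and Benjamini-Hochberg adjustment over 14072 genes. Changes in that test are log2 values relative to the bulk of genes (TMM scaling) with SE, and levels are not TMM-scaled. Since the classes were made from other genes of the same cells, much of the transcriptome passes in each pair, and the counts for the pathway are read against that share.

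From quiescent to activated NSC-like cells, 3 of the 10 genes were called (2 higher, 1 lower), beside 58.5% of all genes (25.9% higher, 32.6% lower). From activated NSC-like to TAP-like cells 3 were called (2 higher, 1 lower), beside 47.7% (23.2% and 24.5%). From TAP-like to neuroblast-like cells 6 were called (3 higher, 3 lower), beside 48.3% (25.4% and 22.9%). Neuroblast-like against quiescent NSC-like cells gave 7 (3 higher, 4 lower), beside 75.4% (35.9% and 39.5%). Neuron-like against neuroblast-like cells gave 6 (5 higher, 1 lower), beside 59.5% (31.5% and 28.0%). Microglia-like against quiescent NSC-like cells gave 5 (3 higher, 2 lower), beside 57.9% (24.1% and 33.9%). The median log2 change of the 10 genes was -0.11, 0.01, 0.08, -0.15, 0.42 and -0.11 in these pairs, against -0.13, -0.04, 0.06, -0.06, 0.01 and -0.38 over all genes. Scaling decides part of the split between higher and lower. From quiescent to activated NSC-like cells it was 2 and 1 with TMM, 1 and 2 with DESeq2 and 4 and 0 with library totals, beside 3641 and 4587, 3470 and 4554, and 5282 and 3200 of all genes. From activated NSC-like to TAP-like cells it was 2 and 1, 2 and 4, and 1 and 5, and in neuroblast-like against quiescent NSC-like cells 3 and 4, 2 and 6, and 4 and 4. In the other pairs the split was the same under all 3 scalings.

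**Figure D2:**
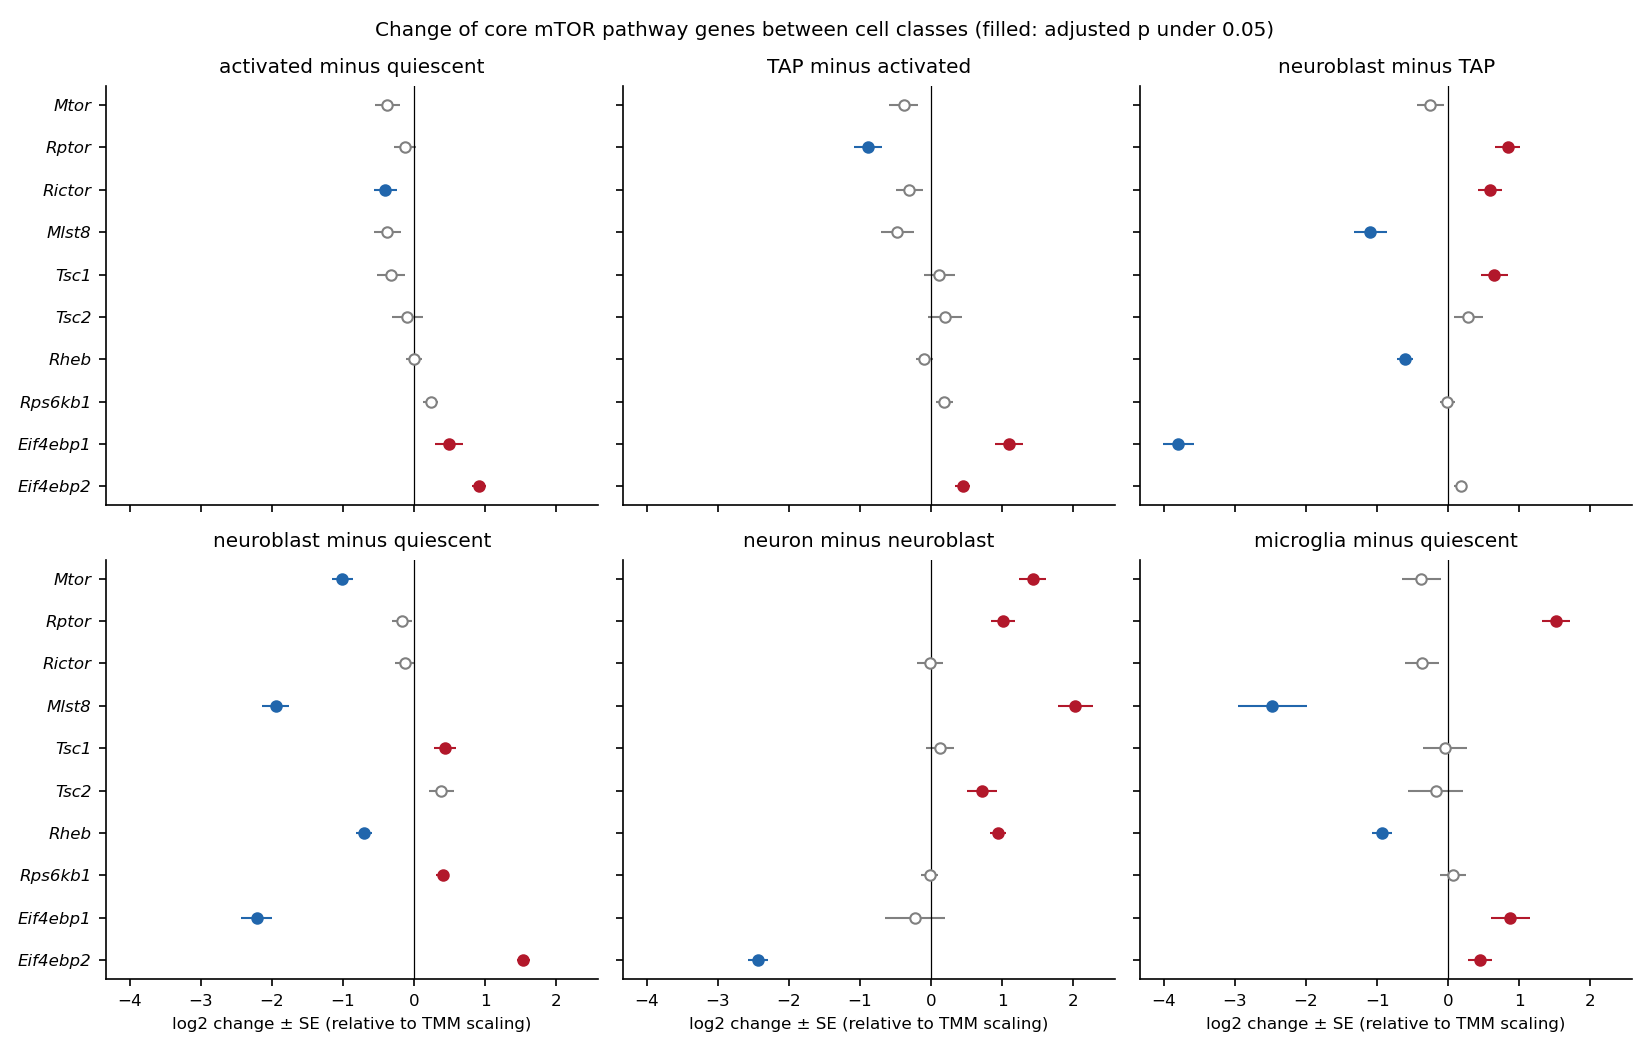
Log2 change with SE of each of the 10 genes in the 6 class comparisons (edgeR, library as block), filled where the adjusted p was under 0.05. Eif4ebp1 has the lowest value, -3.80 from TAP-like to neuroblast-like cells, while Eif4ebp2 rises in the first steps and stands at -2.44 in neuron-like against neuroblast-like cells.

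The 2 eIF4E inhibitors rose together into TAP-like cells and parted in neuroblast-like cells. Eif4ebp1, which encodes 4E-BP1, was highest in TAP-like cells, at 78.3, 85.9, 73.9 and 50.2 CPM. In activated NSC-like cells it stood at 36.1, 46.9, 38.1 and 42.0, and in quiescent NSC-like cells at 24.6, 23.3, 20.3 and 21.0. In neuroblast-like cells it fell to 6.78, 7.99, 3.44 and 3.67. The 4 libraries of each of these classes lay apart from those of the next.

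Beyond the lineage, Eif4ebp1 was near absent in neuron-like (23 UMIs in 650 cells) and olfactory ensheathing-like cells (38 UMIs in 2024 cells), and it was at 0 in the 125 oligodendrocyte-like cells of 2 libraries, which allows a share of cells with a UMI of up to 2.4%. Near-empty barcodes, which hold free RNA, gave Eif4ebp1 at 7.76 to 25.5 CPM, and its level in neuroblast-like, neuron-like and olfactory ensheathing-like cells was below that of the same library's near-empty barcodes in all 4 libraries. Also below their near-empty levels in all 4 libraries were neuroblast-like Mtor, Mlst8 and Rheb, microglia-like Mlst8 and Rheb, and TAP-like Rictor, described later. In KO young the near-empty levels are uncertain, since those barcodes held 217533 UMIs of all genes. Of these, 4 were of Eif4ebp1, 3 of Mtor, 2 of Mlst8, 8 of Rictor and 40 of Rheb. The share of free RNA within cells was not measured, so low levels and background cannot be told apart here. With each cell thinned to 1000 UMIs, 4.84% to 14.3% of TAP-like cells had an Eif4ebp1 UMI (22.6% to 42.9% unthinned), against 0% to 0.662% of olfactory ensheathing-like cells (0.521% to 1.94% unthinned).

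In the edgeR test, Eif4ebp1 rose by 0.49 ± 0.195 (adjusted p = 0.0308) from quiescent to activated NSC-like cells and by 1.10 ± 0.198 (adjusted p = 1.48e-05) from there to TAP-like cells. It then fell by 3.80 on the log2 scale (SE 0.220, adjusted p = 1.25e-17) to neuroblast-like cells. All 4 libraries moved the same way at each step. The first of these steps lost its call under 6 of 10 alternatives, with DESeq2 and with sums per mouse among them. Its change fell to 0.20 with the eYFP-rich cluster as the quiescent class (adjusted p = 0.509). The later steps kept their calls under every alternative run.

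Eif4ebp2, which encodes 4E-BP2, rose at the same steps and stayed high afterwards. Its level was 45.2, 49.6, 47.1 and 46.0 CPM in quiescent NSC-like cells, and 110, 101, 111 and 126 in activated NSC-like cells. TAP-like cells stood at 117, 147, 136 and 140, and neuroblast-like cells at 126, 166, 156 and 149. Neuron-like cells were back at 52.2, 41.6, 23.1 and 25.5, with both KO libraries below both WT libraries, a difference that 1 reaction per group cannot test. Quiescent NSC-like libraries lay below those of all 3 following classes, whose ranges overlapped at their edges.

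The rise of Eif4ebp2 from quiescent to activated NSC-like cells was 0.92 ± 0.0987 (edgeR, adjusted p = 1.59e-10), with the smallest adjusted p of the 10 genes in that pair. From activated to TAP-like cells it was 0.44 ± 0.102 (adjusted p = 0.000389), a call lost with library totals, without the KO young library and with sums per mouse (adjusted p up to 0.194). From TAP-like to neuroblast-like cells the change was 0.18 and did not pass (adjusted p = 0.104). Against neuroblast-like cells, neuron-like cells were lower by a log2 change of -2.44 ± 0.135 (adjusted p = 6.83e-19). Neuroblast-like cells thus carried Eif4ebp2 at 1.54 ± 0.0858 above quiescent NSC-like cells (adjusted p = 2.51e-19) and Eif4ebp1 at -2.21 ± 0.217 (adjusted p = 7.56e-12).

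The ratio of both inhibitors shows the difference within libraries. For every 100 Eif4ebp2 UMIs there were 43.1 to 54.4 Eif4ebp1 UMIs in quiescent NSC-like, 32.7 to 46.3 in activated NSC-like and 35.8 to 67.2 in TAP-like cells, but 2.20 to 5.39 in neuroblast-like cells. Microglia-like cells lay at 42.9 to 86.4, and neuron-like cells at 3.45 to 26.5 on few UMIs. The ratio is compared between classes only, since capture of the 2 transcripts may differ.

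**Figure D3:**
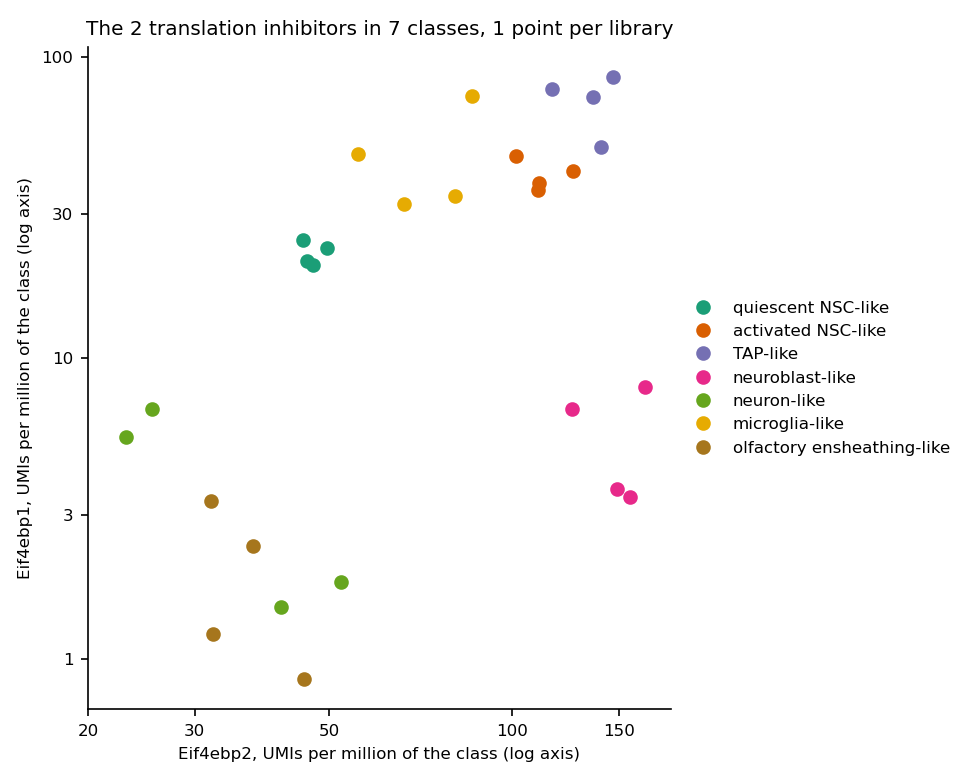
Eif4ebp1 against Eif4ebp2 in CPM, both on log axes, with 1 point per class and library. Points of quiescent NSC-like, activated NSC-like and TAP-like cells climb on both axes, while neuroblast-like points keep Eif4ebp2 at 126 to 166 with Eif4ebp1 at 3.44 to 7.99.

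Clusters within and between the classes gave a finer view of Eif4ebp1, as a description. Both TAP-like clusters had similar levels, at 75.8 CPM (leading genes Hist1h1b and Top2a) and 77.0 (Cenpf and Cenpa, 2 libraries). A cluster of 452 deeply sequenced cells led by the DNA replication genes Hells, Rrm2 and Mcm3 stayed unnamed, since it matched neuroblast-like markers best but had more markers of another class among its leading genes. It had 93.4% of cells with an eYFP UMI and carried Eif4ebp1 at 12.5 (9.06 to 17.0 over libraries) and Eif4ebp2 at 155 (147 to 178). Its Eif4ebp1 level lay between those of TAP-like and neuroblast-like cells. The 4 neuroblast-like clusters spanned 2.90 to 8.45 for Eif4ebp1 and 135 to 159 for Eif4ebp2.

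Quiescent NSC-like clusters differed in Eif4ebp1 and hardly in Eif4ebp2. Eif4ebp1 was lowest at 6.54 in the cluster led by Igfbp2 and Slc6a11 (205 cells) and 7.20 in the one led by Agt and Itih3 (611 cells), and highest at 30.9 in the cluster led by Prss56 and Thbs4, the one rich in eYFP. Eif4ebp2 spanned 43.2 to 50.1 over the same clusters. In the eYFP-rich cluster Eif4ebp1 was 33.7, 37.9, 27.6 and 32.1 by library, against 21.2, 22.1, 18.5 and 19.7 in the remaining quiescent cells, so it was higher in all 4 libraries. The clusters come from the same cells, so this is a description.

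Among the complex subunits, Mtor itself was highest in neuron-like cells. It stood at 23.4, 47.6, 33.1 and 33.8 CPM there, at 21.5, 24.6, 19.0 and 21.6 in quiescent NSC-like cells and at 9.20, 14.9, 10.5 and 12.7 in neuroblast-like cells. Quiescent and neuroblast-like libraries did not overlap. In edgeR, Mtor was lower in neuroblast-like than in quiescent NSC-like cells by a log2 change of -1.01 ± 0.152 (adjusted p = 1.71e-07) and higher in neuron-like than in neuroblast-like cells by 1.43 ± 0.187 (adjusted p = 1.61e-08), under every alternative run. At the steps from quiescent through activated to TAP-like cells and on to neuroblast-like cells its changes were -0.37, -0.38 and -0.25, and none passed. The first was called with DESeq2 (-0.41, adjusted p = 0.0273), without the KO old library (-0.58, adjusted p = 0.0169) and with doublets kept (-0.54, adjusted p = 0.0006), and the second with DESeq2 (-0.46, adjusted p = 0.0458) and library totals (-0.63, adjusted p = 0.00892). The plain levels were 22.5 ± 7.27 in activated NSC-like and 21.7 ± 2.31 in quiescent NSC-like cells.

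Rptor, the defining subunit of mTORC1, was highest in microglia-like cells, at 39.5, 43.0, 47.8 and 42.1 CPM against 14.6, 17.1, 11.2 and 14.1 in quiescent NSC-like cells. These groups did not overlap, and the change was 1.52 ± 0.195 (edgeR, adjusted p = 1.00e-08). Its lowest class was TAP-like, at 7.20, 10.5, 6.70 and 7.01, or 7.85 ± 1.76. Rptor fell from activated NSC-like (15.9 ± 1.86) to TAP-like cells by 0.88 on the log2 scale (SE 0.199, adjusted p = 0.00029), rose to neuroblast-like cells by 0.84 ± 0.176 (adjusted p = 0.000116) and again to neuron-like cells by 1.01 ± 0.166 (adjusted p = 1.42e-06). TAP-like cells thus had the lowest Rptor and the highest Eif4ebp1 of the 7 classes. With sums per mouse, the fall to TAP-like and the rise after it both lost their call (adjusted p = 0.983 and 0.883), and the fall also did when predicted doublets were kept (adjusted p = 0.125).

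Rictor, the defining subunit of mTORC2, varied little by class. It was highest in endothelial-like cells (72.6 CPM over 3 libraries, 30 UMIs in 87 cells) and olfactory ensheathing-like cells (61.9 ± 12.4), and lowest in TAP-like cells (27.4 ± 4.54, or 23.4, 33.5, 24.6 and 28.0). The rise from TAP-like to neuroblast-like cells (41.5 ± 8.36) was 0.59 ± 0.168 (edgeR, adjusted p = 0.00365), lost without the KO young library and with sums per mouse. From quiescent to activated NSC-like cells edgeR gave -0.41 ± 0.162 (adjusted p = 0.0299), but the plain levels were 41.9 ± 8.56 and 42.6 ± 13.4, activated was the higher in 2 of 4 libraries, and with library totals the change was -0.06 (adjusted p = 0.708). The call was also lost without the WT old or the KO young library, with the eYFP-rich cluster as the quiescent class and with sums per mouse.

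Mlst8, the subunit shared by both complexes, had the most even level in quiescent NSC-like cells: 15.03, 15.6, 14.9 and 15.4 CPM. In neuron-like cells it stood at 18.0, 19.3, 18.6 and 22.5. In neuroblast-like cells it was down to 3.39, 5.33, 5.52 and 1.67, apart from both. Its change was -1.95 ± 0.188 from quiescent NSC-like to neuroblast-like cells (edgeR, adjusted p = 3.93e-12), -1.10 ± 0.228 from TAP-like (8.92 ± 2.41) to neuroblast-like cells (adjusted p = 0.000107) and 2.03 ± 0.244 from neuroblast-like to neuron-like cells (adjusted p = 2.22e-09). Microglia-like cells held 5 Mlst8 UMIs in all, with 0 in both old libraries, and the fitted change against quiescent NSC-like cells was -2.47 ± 0.485 (adjusted p = 2.99e-05). Each of these calls held under every alternative that tested the gene. Mlst8 and Rptor, subunits of the same complex, therefore stood at opposite ends in microglia-like cells.

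Of the upstream inhibitors, Tsc1 and Tsc2 encode partners in 1 protein complex. In neuron-like cells Tsc1 stood at 34.5 ± 12.8 and Tsc2 at 34.8 ± 16.0 CPM. Oligodendrocyte-like cells had Tsc1 at 36.9 over 2 libraries. Tsc1 was 25.5 ± 5.79 in neuroblast-like, 19.0 ± 7.74 in TAP-like, 18.5 ± 5.31 in quiescent NSC-like and 18.0 ± 6.27 in activated NSC-like cells, with ranges that overlap between neighbours. It rose from TAP-like to neuroblast-like cells by 0.65 ± 0.189 (edgeR, adjusted p = 0.0042), in 3 of 4 libraries, and stood higher in neuroblast-like than in quiescent NSC-like cells by 0.43 ± 0.159 (adjusted p = 0.0134). Both calls were lost without the WT young library, with coarser clusters (Leiden resolution 0.5) and with sums per mouse, and the second also without either KO library and with DESeq2. Coarser clusters and sums per mouse also change which cells make up a class. Of the 6 pairs, the reported fit called Tsc2 in neuron-like against neuroblast-like cells, by 0.72 ± 0.212 (adjusted p = 0.00332), a call lost with sums per mouse (0.93, adjusted p = 0.0931, from 2 neuron-like sums). In neuroblast-like against quiescent NSC-like cells Tsc2 was called with library totals (0.49, adjusted p = 0.0108), with no filter on low counts (0.44, adjusted p = 0.0222) and with doublets kept (0.45, adjusted p = 0.0183).

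Rheb, the GTPase that activates mTORC1, stood at 356, 250, 313 and 337 CPM in neuron-like cells. It was 308, 277, 279 and 267 in activated NSC-like cells, 241, 221, 212 and 208 in quiescent NSC-like cells and 153, 147, 138 and 147 in neuroblast-like cells. Neuroblast-like libraries lay below all 3. In edgeR, Rheb was lower in neuroblast-like cells than in TAP-like cells (-0.61 ± 0.115, adjusted p = 2.56e-05) and quiescent NSC-like cells (-0.71 ± 0.111, adjusted p = 3.10e-07), and higher in neuron-like than in neuroblast-like cells (0.94 ± 0.116, adjusted p = 3.92e-09). It was lower in microglia-like cells (134, 129, 95.5 and 161) than in quiescent NSC-like cells (-0.93 ± 0.140, adjusted p = 2.91e-07). These calls held under every alternative run. Between quiescent and activated NSC-like cells the share of UMIs was higher in activated cells in 4 of 4 libraries, while the change relative to the bulk of genes was -0.00 (adjusted p = 0.994) and with library totals 0.36 (adjusted p = 0.00329), so its direction there depends on the scaling.

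Rps6kb1, which encodes S6 kinase 1, was the most even of the 10 across classes. Its level was 58.6 ± 4.72 CPM in quiescent NSC-like, 88.4 ± 9.69 in activated NSC-like, 80.1 ± 7.53 in TAP-like, 84.0 ± 6.02 in neuroblast-like and 90.4 ± 10.3 in neuron-like cells. Quiescent NSC-like libraries (55.1, 65.6, 57.0 and 56.9) lay below all libraries of those 4 classes. Relative to the bulk of genes the difference from neuroblast-like cells was 0.40 ± 0.0936 (edgeR, adjusted p = 0.00019), lost without WT young, KO young or KO old (adjusted p up to 0.135), and that from activated NSC-like cells was 0.23 ± 0.109, which did not pass (adjusted p = 0.0666) but did with library totals (0.59, adjusted p = 5.22e-06) and without the WT old library (0.30, adjusted p = 0.025).

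Microglia-like cells, the one immune class, combined high Rptor with Eif4ebp1 at 32.4, 74.3, 47.8 and 34.5 CPM and Eif4ebp2 at 66.3, 86.1, 55.7 and 80.5. Both were higher than in quiescent NSC-like cells in edgeR, Eif4ebp1 by 0.87 ± 0.273 (adjusted p = 0.00603) and Eif4ebp2 by 0.45 ± 0.169 (adjusted p = 0.0226). The first call was lost with sums per mouse and with the eYFP-rich cluster as the quiescent class, and the second with no filter on low counts, without WT young and with coarser clusters. Over all genes the median change in this pair was -0.38, against -0.04 with DESeq2's and -0.27 with total scaling. In the remaining pairs the scalings placed that median between -0.26 and 0.26.

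The wider pathway was read from 6 lists of 81 other genes, of which 78 passed the filter. From quiescent to activated NSC-like cells 24 rose and 25 fell (36 and 15 with library totals). From activated to TAP-like cells 19 rose and 21 fell (12 and 27 with library totals), from TAP-like to neuroblast-like cells 31 rose and 15 fell, and against quiescent NSC-like cells neuroblast-like cells had 33 higher and 27 lower (39 and 20 with library totals). Neuron-like against neuroblast-like cells gave 24 higher and 26 lower (29 and 23 with library totals). Microglia-like against quiescent NSC-like cells gave 36 and 25 (39 and 22 with library totals). The median over the lists was -0.07, -0.03, 0.16, 0.19, 0.04 and 0.36 in that order. The lists are described by their counts, with examples and their edgeR adjusted p. UMIs of the lower class are not given for the examples, so large falls are read for their direction only. Over all genes the shares were 25.9% higher and 32.6% lower in activated against quiescent NSC-like cells, 35.9% and 39.5% in neuroblast-like against quiescent NSC-like cells, and 31.5% and 28.0% in neuron-like against neuroblast-like cells. From activated to TAP-like cells they were 23.2% and 24.5%, and from TAP-like to neuroblast-like cells 25.4% and 22.9%. Microglia-like against quiescent NSC-like cells gave 24.1% and 33.9%. With library totals, 5282 of all genes were higher and 3200 lower in activated against quiescent NSC-like cells. That scaling gave 2199 and 4792 from activated to TAP-like cells, and 5463 and 5264 in neuroblast-like against quiescent NSC-like cells. It gave 5000 and 3295 in neuron-like against neuroblast-like cells, and 3662 and 4349 in microglia-like against quiescent NSC-like cells.

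In the amino acid arm, 2 of 19 tested genes were higher and 11 lower in activated against quiescent NSC-like cells (4 and 7 with library totals), with a list median of -0.32. Castor1, a sensor of arginine, was lower by a log2 change of -5.04 (adjusted p = 8.43e-15), and the sestrins Sesn3 and Sesn1, stress-induced inhibitors of mTORC1, by -1.12 and -0.94 (adjusted p = 7.35e-12 and 2.24e-06). In neuroblast-like against quiescent NSC-like cells 3 were higher and 12 lower (3 and 8 with library totals), among them Castor1 at -7.08 and Sesn2 at -3.19 (adjusted p = 9.35e-21 and 1.91e-13). In the energy and stress arm of 9 genes, 2 were higher and 4 lower in activated against quiescent NSC-like cells (4 and 2 with library totals), and 2 and 2 in neuroblast-like against quiescent NSC-like cells (4 and 2 with library totals). Ddit4l, of a family of mTORC1 inhibitors induced by stress, stood at -6.31 in the second pair (adjusted p = 1.51e-21) and Ddit4 at -2.64 (adjusted p = 3.41e-23).

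In the growth factor arm, 11 of 14 genes were higher and 1 was lower in neuroblast-like against quiescent NSC-like cells (9 and 1 with DESeq2, 12 and 1 with library totals), with a median of 0.93. In that pair Pik3cd, a PI3K catalytic subunit, was higher by 4.06 (adjusted p = 1.03e-15) and the kinase Akt1 by 1.78 (adjusted p = 8.79e-21). The receptor Igf1r was higher by 1.71 (adjusted p = 5.82e-16), while Akt2 stood at -0.61 (adjusted p = 5.17e-06). In activated against quiescent NSC-like cells 3 genes of this arm were higher and 4 lower, which library totals turned to 5 and 1. In neuron-like against neuroblast-like cells 3 were higher and 7 lower: Akt1 was at -1.54 (adjusted p = 4.01e-14) and Igf1r at -1.34 (adjusted p = 1.36e-11).

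Among the other complex genes, Rhebl1, a Rheb paralogue, was higher in activated than quiescent NSC-like cells by 0.94 (adjusted p = 0.00400), in TAP-like than activated cells by 1.91 (adjusted p = 5.26e-08) and in neuroblast-like than quiescent NSC-like cells by 3.37 (adjusted p = 2.19e-18), the last of these with Rheb itself at -0.71. It then stood at -2.03 in neuron-like against neuroblast-like cells (adjusted p = 4.21e-09). Prr5, a subunit of mTORC2, was lower in activated NSC-like cells by a log2 change of -2.84 (adjusted p = 3.45e-14) and in neuroblast-like cells by -4.99 (adjusted p = 4.61e-22), both against quiescent NSC-like cells. Of the 9 genes in this list, 4 were higher and 1 lower in activated against quiescent NSC-like cells, and 3 and 3 in neuroblast-like against quiescent NSC-like cells.

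Among effectors and translation factors, 8 of 19 were higher and 4 lower in activated against quiescent NSC-like cells (13 and 3 with library totals), and 9 higher and 6 lower in neuroblast-like against quiescent NSC-like cells (12 and 4). The elongation factor Eef2 was higher by 1.64 (adjusted p = 2.46e-16) and 2.04 (adjusted p = 6.22e-20) in these pairs, and the initiation factors Eif4a1 and Eif4b by 2.13 and 2.09 in the second (adjusted p = 4.30e-17 and 1.18e-22). Tfeb, a transcription factor of lysosomal genes that mTORC1 holds in the cytoplasm, was lower by log2 changes of -1.96 and -5.45 (adjusted p = 7.25e-09 and 7.42e-20).

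The list of integrated stress and cell cycle genes that the study ties to mTOR gave 5 of 8 higher and 1 lower in activated against quiescent NSC-like cells. The members that rose most are cell cycle genes: Cdk6 by 6.46, Ccnd1 by 4.39 and Cdk4 by 2.63 (adjusted p = 6.38e-28, 1.73e-17 and 2.59e-20). Eif2ak2 encodes PKR, the kinase that senses double-stranded RNA and phosphorylates eIF2α. It was lower at each step, by log2 changes of -0.95 in activated NSC-like (adjusted p = 0.00027), -0.87 in TAP-like (adjusted p = 0.00881) and -2.09 in neuroblast-like cells (adjusted p = 6.71e-07). In neuroblast-like against quiescent NSC-like cells it was at -3.90 ± 0.251 (adjusted p = 4.13e-17).

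**Figure D4:**
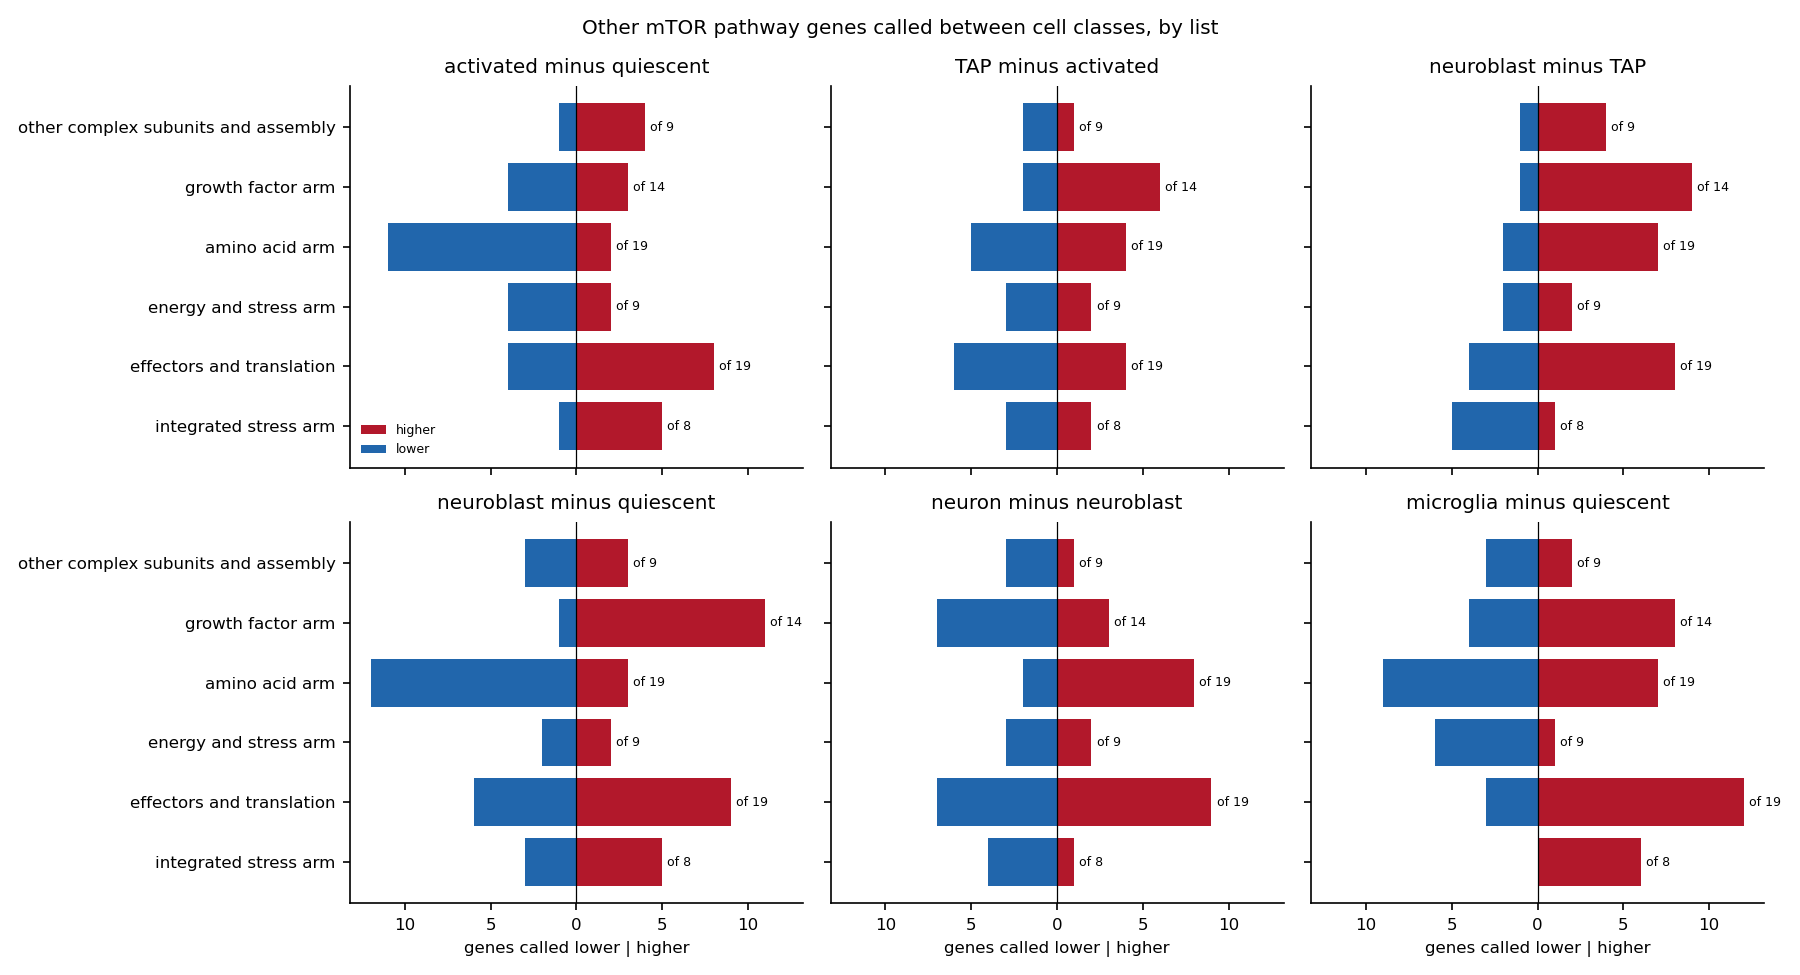
Number of genes of each of the 6 lists called higher and lower in the 6 class comparisons (edgeR, adjusted p under 0.05). The amino acid arm has 11 of 19 lower in activated against quiescent NSC-like cells, and the growth factor arm 11 of 14 higher in neuroblast-like against quiescent NSC-like cells.

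Groups were compared first as libraries, without a test, since each group was 1 reaction. WT young had the lowest Tsc1 of the 4 libraries in 7 of 7 classes, the lowest Tsc2 in 6, the lowest Rictor and Rptor in 5 and the lowest Mtor in 4. WT old had the highest Mtor and Rictor in 6 classes and the highest Tsc2 and Rps6kb1 in 5. Rheb went the other way, with its highest level in WT young in 6 of 7 classes. How often a library was lowest or highest over all genes was not counted, so these orders are not read as particular to the pathway. The near-empty barcodes of the libraries are given beside these. They held Tsc1 at 18.7, 24.1, 36.8 and 24.6 CPM and Rictor at 24.4, 67.4, 36.8 and 54.8. Tsc2 stood there at 16.0, 23.5, 23.0 and 18.7 and Rheb at 232, 151, 184 and 169. The KO young values rest on 8 UMIs each for Tsc1 and Rictor, 5 for Tsc2 and 40 for Rheb. WT young was thus the lowest for Tsc1, Tsc2 and Rictor and the highest for Rheb in near-empty barcodes too, and the part of free RNA in the group differences was not tested.

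Quiescent NSC-like cells with a vSVZ hashtag gave 8 mice, 2 per group, with 145 to 322 cells each. Tsc1 stood at 8.69 and 5.56 CPM in the WT young mice (7 and 8 UMIs), 27.3 and 16.4 in those of WT old, 20.2 and 19.9 for KO young animals and 20.1 and 17.0 for KO old animals. Tsc2 stood at 4.97 and 7.64 in WT young (4 and 11 UMIs), 22.8 and 15.9 in those of WT old, 13.1 and 8.61 for KO young animals and 14.2 and 14.2 for KO old animals. Rictor stood at 34.8 and 34.7, then 59.2 and 53.9, 44.7 and 36.7, and 47.2 and 39.2. For all 3 genes the WT young mice were the lowest of the 8. The share of all genes with that order was not counted. Tsc2 was below the near-empty level of its own library in every mouse, Tsc1 in every mouse but the first of WT old, and Rictor in both WT old mice, both KO old mice and the second KO young mouse (36.7 against 36.8, the latter on 8 UMIs).

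With age in WT, 3 of the 10 genes were called and all 3 were higher, beside 15.6% of 10429 genes called (7.34% higher and 8.30% lower). They were Tsc1 (1.60 ± 0.396, edgeR adjusted p = 0.00527), Tsc2 (1.47 ± 0.413, adjusted p = 0.0138) and Rictor (0.69 ± 0.207, adjusted p = 0.0218). Eif4ebp2 (0.54, adjusted p = 0.068) and Rps6kb1 (0.46, adjusted p = 0.0883) missed the threshold, and Mtor, Rptor, Mlst8, Rheb and Eif4ebp1 lay at 0.31, 0.25, 0.15, -0.18 and -0.37. With genotype in young mice, 1 gene was called, Tsc1 (1.58 ± 0.385, adjusted p = 0.018), beside 2.79% of genes (1.49% higher and 1.30% lower), and Tsc2 was at 0.69 (adjusted p = 0.474). Both comparisons share the WT young mice, so they are not independent.

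With age in KO none of the 10 was called in edgeR (1 at an unadjusted p under 0.05), beside 4.58% of genes, and Tsc1 was at -0.08. With genotype in old mice none was called (0 unadjusted), beside 0.230%, and Tsc1 was at -0.10. The interaction, which subtracts the WT age change from the KO one, gave no call (4 unadjusted), beside 1.15%, and for Tsc1 it was -1.69 ± 0.481 (adjusted p = 0.0829), or -1.70 with no filter on low counts (adjusted p = 0.0449). A difference between genotypes in the age change of Tsc1 thus depends on that filter. DESeq2 gave Rictor an adjusted p of 0.114 with age in WT and gave Tsc1 and Tsc2 none, since its own filter on low means set theirs aside. The edgeR calls were lost when single mice were left out, which leaves 1 mouse in a group that is then assumed to vary like the mice of the other groups: for Rictor with any of the 4 WT mice, for Tsc1 by genotype with any of the 4 young mice, for Tsc1 by age without WT old mouse 1 or WT young mouse 2, and for Tsc2 without WT old mouse 1 or either WT young mouse. The changes themselves ran from 0.63 to 0.75 for Rictor, 1.25 to 1.997 for Tsc1 by age, 1.25 to 1.91 for Tsc2 and 1.23 to 1.83 for Tsc1 by genotype when a mouse was left out. Tsc1 by age was also lost with the stricter hashtag call (adjusted p = 0.0745). All 4 calls were also lost with coarser clusters and without the eYFP-rich cluster. These alternatives overlap, since coarser clusters left 1 led by Prss56, Crym and Thbs4 unnamed (1419 cells, 55.3% with an eYFP UMI). The sizes differed by gene. Rictor went down to 0.27 and 0.25 (adjusted p = 0.603 and 0.638), while Tsc1 by age stood at 1.65 in both (adjusted p = 0.061 and 0.0614), Tsc2 at 1.76 and 1.77 (adjusted p = 0.0709 and 0.0733) and Tsc1 by genotype at 1.43 and 1.45 (adjusted p = 0.239 in both).

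The mice behind these calls differed in other measures, whose part was not tested. The WT young mice had a median of 5441 and 5604.5 UMIs per quiescent cell, against 7167.5 to 8130 in the others. The eYFP-rich cluster made up 46.2% and 51.6% of their quiescent cells, 22.3% and 11.7% in those of WT old, 38.3% and 38.6% for KO young animals and 16.8% and 16.3% for KO old animals. Summed markers of the quiescent class itself ran at 20901 to 21074 CPM in the WT young mice and 23969 to 25570 in the other 6, with 5 of 7 called higher with age in WT and 2 of 7 with genotype in young mice. Of 3 olfactory ensheathing markers tested, 2 were higher in each of these comparisons and 1 was lower with age. The sum of that list ran at 315 to 450 CPM in the WT young mice and 192 to 227 in those of WT old. It ran at 249 to 451 for KO young animals and 240 to 343 for KO old animals. Summed activated NSC-like markers ran at 524 to 700, 354 to 376, 563 to 567 and 496 to 558, with 2 of 4 tested lower with age in WT. Summed neuroblast markers ran at 304 to 313 CPM in the WT young mice, 134 to 160 in those of WT old, 237 to 243 for KO young animals and 110 to 124 for KO old animals, and all 6 were lower with age in WT and in KO. Summed oligodendrocyte markers ran at 23.6 to 29.9, 77.4 to 82.4, 49.7 to 55.3 and 51.5 to 58.9, with 2 of the 6 at 0 in each WT young mouse and 2 of 3 tested higher with age in WT.

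**Figure D5:**
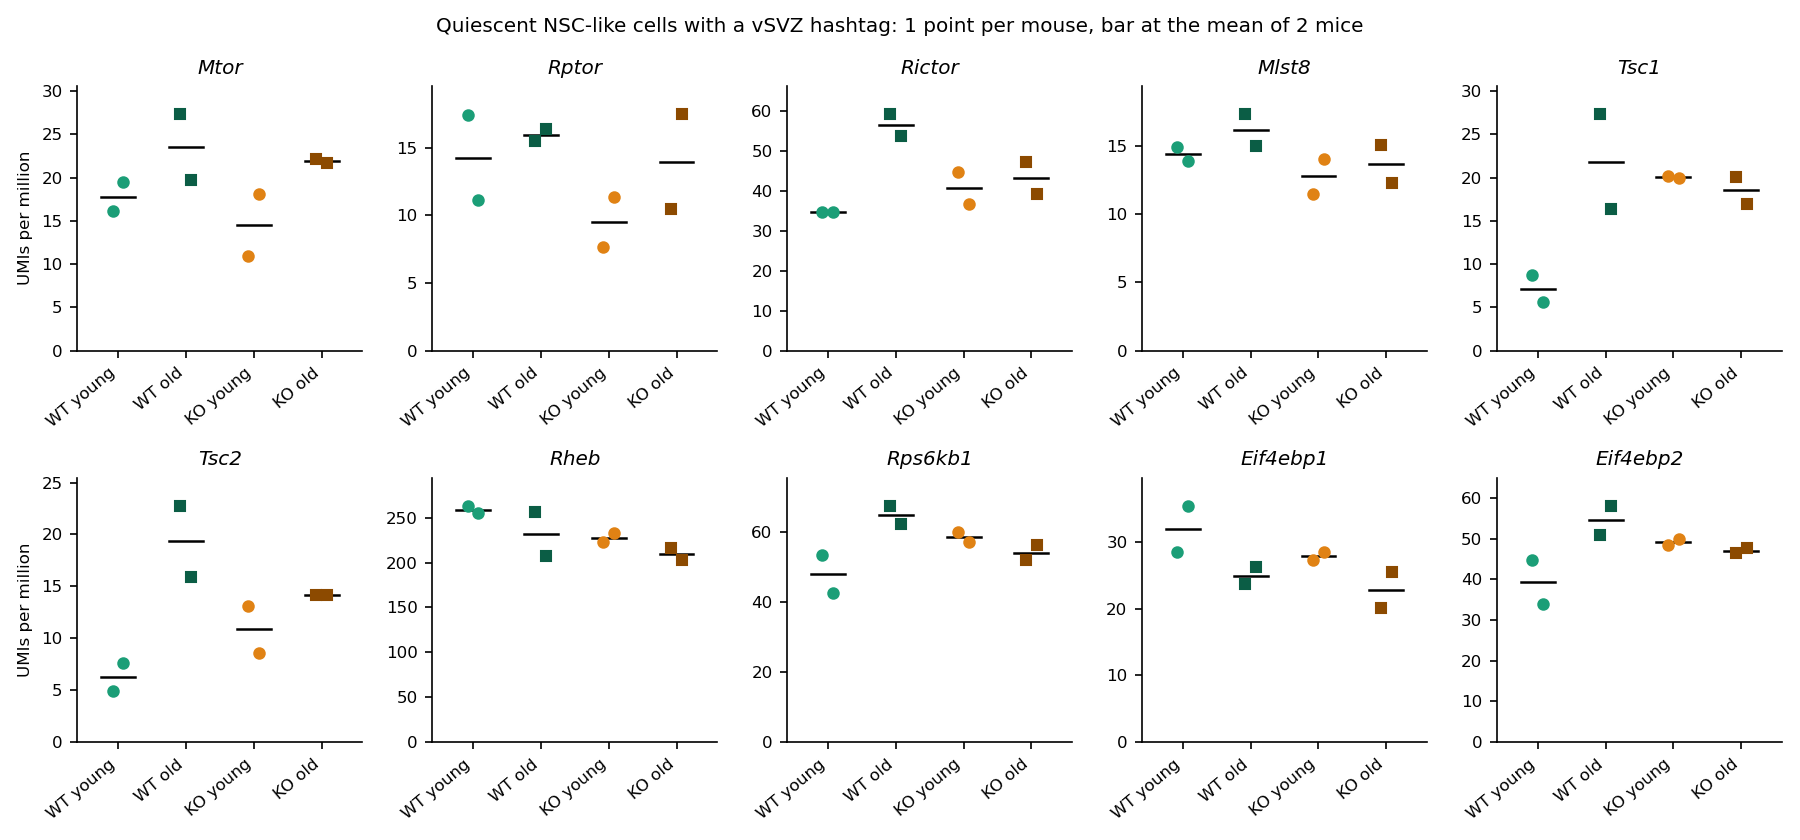
Levels of the 10 genes in quiescent NSC-like cells with a vSVZ hashtag, in CPM with 1 point per mouse (2 mice per group). Tsc1, Tsc2 and Rictor are lowest in both WT young mice (Tsc1 at 8.69 and 5.56), while Rheb and Eif4ebp1 are not.

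No member was called between groups in the remaining classes. In neuroblast-like cells 6 of the 10 genes passed the filter, and edgeR called 0 of them for age in WT (3.03% of 6736 genes), age in KO (0.445%), genotype in young (1.60%), genotype in old (0.163%) and the interaction (0.534%), with 0, 0, 2, 0 and 0 at an unadjusted p under 0.05. Tsc1 was at 28.8 CPM in KO young against 10.9 in WT young mice (1.39 ± 0.521, adjusted p = 0.187). In microglia-like cells genotype in young gave 0 of 7 (1 unadjusted, 0.638% of 4546 genes). In olfactory ensheathing-like cells 9 genes gave 0 for age in WT (2.02% of 10084), age in KO (0.278%), genotype in young (0.575%), genotype in old (0.387%) and the interaction (0.00%), with 2, 0, 1, 1 and 1 unadjusted. DESeq2 called none of the genes to which it gave an adjusted p in these 3 classes. Activated NSC-like cells had too few cells with a hashtag for a comparison of groups, and TAP-like and neuron-like cells were not compared.

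Few genes of the wider lists were called between groups. In quiescent NSC-like cells 2 of 71 tested genes were higher and 3 lower with age in WT, beside 7.34% and 8.30% of all genes: Slc38a9 (0.79, adjusted p = 0.0176) and Fnip1 (0.74, adjusted p = 0.0372) of the amino acid arm, Lamtor2 of the same arm (-0.41, adjusted p = 0.017), Eef2 (-0.48, adjusted p = 0.00211) and Cdk4 (-0.84, adjusted p = 0.000321). Eef2 was the one gene of the lists called with age in KO (-0.52, adjusted p = 0.000922). With genotype in either age and in the interaction edgeR called none of the 71. In neuroblast-like cells Lamtor2 was lower with age in WT (-0.96, adjusted p = 0.00971) and Eef2 higher with genotype in young mice (0.29, adjusted p = 0.0415), of 50 tested.

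Genes whose levels tracked the pathway members most closely were named over 34 sums of class and library, as Pearson's r of log2 values across 7229 genes. The sums share libraries and cell types, so r is a description. Rptor was closest to Fam102b (0.93), Eif4ebp2 to Zscan21 (0.91), Eif4ebp1 to E2f3 (0.90), Mlst8 to Adgrb1 (0.89) and Rheb to Sdhb (0.89). Mtor (Ccnt2, 0.75), Rictor (Agrn, 0.78), Tsc1 (Golga3, 0.78), Tsc2 (Vps26b, 0.80) and Rps6kb1 (Tbp, 0.81) had weaker matches. Among the members, the closest pairs were Mlst8 with Rheb (0.61), Tsc1 with Tsc2 (0.53), Eif4ebp1 with Eif4ebp2 (0.53) and Mtor with Rheb (0.53), and the most opposed was Rictor with Eif4ebp1 (-0.43).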

How the data were processed

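Droplet single-cell libraries (10x 3′ v3.1) of 4 groups were used, each with a hashtag library that names region and mouse. The authors deposited 1 matrix of raw UMI counts and a table of hashtag counts, both whole numbers that were not normalized. The submitters' processing notes name kallisto, bustools, Scanpy 1.6.0 and GRCm38, and the strand setting is not given in the sources used here. A sample whose label gives no group was left out.

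The deposited matrix held 155882 to 335643 barcodes and 27096070 to 78028524 UMIs per library. Cells with 100 to 6000 genes, 1000 to 20000 UMIs and at most 10% mitochondrial UMIs were kept, and predicted doublets (Scrublet, 1.05% to 2.65% of a library) were removed. Libraries shared 30 barcode sequences. Cells were clustered (Scanpy 1.11.5, Leiden resolution 1) without the pathway genes, and clusters were named from marker lists. The names were rebuilt and may differ from the study's. Hashtags were called with a mixture of 5 components, and the hashtag number was read as the mouse. Near-empty barcodes are those with 5 to 100 UMIs.

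Counts were summed per class and library, or per class and mouse, where at least 20 cells were present. The quasi-likelihood test of edgeR 4.0.16 (R 4.3.3) was applied after filterByExpr and TMM scaling, with Benjamini-Hochberg adjustment over all genes tested and a threshold of 0.05. The class fit had library as a block, and the 4 libraries behind it are 4 different groups. Group fits used 2 mice per group from 1 reaction, so their p-values measure the spread between mice in that reaction only. DESeq2 1.42.0, scaling by library totals, no filter, leaving out libraries or mice, Leiden resolution 0.5, kept doublets, another quiescent class, sums per mouse and a stricter hashtag call were the alternatives. The biological coefficient of variation was 0.118 between libraries in the class fit and 0.0711 between mice in quiescent NSC-like cells. On simulated counts, 56% to 86.5% of 200 genes changed by a log2 value of 1 were called in the class comparisons and 50% to 67.5% in the quiescent group comparisons. All simulated sums of a fit shared the same mean profile, and the 200 genes were drawn at random from all tested. The simulation thus lacks the wide differences between real classes, and its shares do not hold for genes at the members' levels. Intervals and limits on shares cover counting error only.

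All 10 members are named in each comparison, and of each other list at most the 3 largest rises and 3 largest falls among called genes. Likeness was Pearson's r of log2(CPM + 5) over genes with a mean of at least 20. The members and lists were chosen with earlier results of these data known. The group fit of olfactory ensheathing-like cells was added after the number of cells per mouse was seen.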

Additional observations from a re-analysis of the deposited data

Results flagged for a closer look

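Of 70 sets of 4 libraries (10 genes in 7 classes), 2 had a library far from the other 3 by Dixon's criterion, which chance alone gives in about 1 set in 20. Both were Rptor in WT old. In TAP-like cells Rptor stood at 10.5 CPM (UMIs of the gene per 1000000) in WT old (5 UMIs), with the other libraries between 6.70 and 7.20. In neuron-like cells it stood at 41.6 in WT old (28 UMIs), with the other libraries between 27.0 and 28.1. Of 25 interactions of age and genotype tested for the 10 genes over 3 classes, edgeR called 0.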

How the results depend on the processing

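Of 217 recomputed counts of called genes 195 stayed within 1.5 times the reported count, and of 1869 recomputed single changes 1777 kept direction and side of the threshold, 60 lost their call, 31 gained one and 1 reversed. That one was Rheb in activated against quiescent NSC-like cells, at 0.36 with library totals. From quiescent to activated NSC-like cells the 3 called genes became 6 with doublets kept, 1 with the eYFP-rich cluster as the quiescent class and 1 with sums per mouse. From activated to TAP-like cells the 3 became 6 with DESeq2, 6 with library totals and 1 with sums per mouse. Sums per mouse also gave 2 instead of 6 from TAP-like to neuroblast-like cells and 3 instead of 5 in microglia-like cells. These sums held 2 WT young mice for TAP-like and 2 KO old mice for neuron-like cells, left Mlst8 untested, and gave folds about as large for some lost calls (Eif4ebp2 to TAP-like 0.44, Rictor to neuroblast-like 0.68). In quiescent NSC-like cells the 3 genes called with age in WT became 0 with DESeq2 (4 of the 10 had an adjusted p), 0 at Leiden resolution 0.5, 0 without the eYFP-rich cluster and 0 to 2 with 1 WT mouse left out. The 1 called with genotype in young mice became 0 with DESeq2 (1 had an adjusted p), 0 at Leiden resolution 0.5, 0 without the eYFP-rich cluster and 0 to 0 with 1 young mouse left out. The interaction gave 1 (Tsc1) instead of 0 with no filter on low counts. The cause of these shifts was not tested. Of 200 recomputed levels (cells thinned, or means over cells) 70 moved by more than 1 SD. Comparisons with activated NSC-like cells could not be fitted at Leiden resolution 0.5. There the neuroblast-like class held a cluster of 1808 cells led by Ccnd2 and Insm1, with Hells and Rrm2 among its leading genes. The quiescent class there lacked the cluster led by Prss56, Crym and Thbs4. In sums per mouse the quiescent class held only cells with a vSVZ hashtag. No paired analysis was possible because, from group to group, hashtag numbers mark other mice in each group, and each group has 1 expression library, while class comparisons already had library as a block. Depth is a limit where sums hold few UMIs, as for Tsc1 in the WT young mice (7 and 8) and Mlst8 in microglia-like cells (5 in all).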

Other observations

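Quiescent NSC-like cells carried hashtags of both regions in all 8 mice, which allows a description of the 10 genes by region within a mouse. Eif4ebp1 was lower with a RoB than with a vSVZ hashtag in 7 of 8 mice, at 16.9 ± 8.17 against 26.9 ± 4.44 CPM (SD, n = 8), on 1 to 22 UMIs per mouse in RoB. Mlst8 was lower with a RoB hashtag in 1 of 8 mice (17.9 ± 5.54 against 14.2 ± 1.80), and Mtor (22.3 ± 6.09 against 19.4 ± 4.78) and Tsc1 (23.1 ± 10.9 against 16.9 ± 6.92) in 2 of 8. For Rptor, Rictor, Tsc2 and Rheb it was 4 of 8, and for Rps6kb1 and Eif4ebp2 5 of 8. Sorting gates differed between the regions, and no test was run.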
